A study of Mus musculus with 8 samples.

Results

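Hspa5, Hsp90b1, Pdia3, Pdia4, Pdia6, Calr, Sdf2l1, Dnajb11, Hyou1 and Xbp1 are 10 genes of protein folding in the endoplasmic reticulum (ER), measured in cultured mouse oligodendrocyte precursors kept cool or at body temperature. They were taken by name, with every probe set of the array that is annotated to one of these symbols. This gave 23 probe sets for 10 of the 18193 genes that had a probe set of their own. All 10 genes and 20 of the 23 probe sets passed the filter on low signal, a mean of at least 36.3 over the 8 arrays.

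Embryos of the ICR mouse strain, 15 days old, gave the cerebral hemispheres from which the cells were grown. Dissociated cells grew for 5 days with 10% serum and then for 48 hr without it, at 31.5 °C (4 arrays) or at 37 °C (4 arrays, the controls). The labels name no mutation, transgene or drug, describe the starting culture as mixed, and give 3 mice per group without tying the 4 replicates to separate cultures. Each p therefore measures only the spread between these samples, which may be technical. In bulk RNA of this kind, fewer cells of a type and less RNA per cell cannot be told apart.

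Secreted and membrane proteins fold inside the ER, where chaperones hold unfinished chains and protein disulfide isomerases join their cysteines. When unfolded chains accumulate, the sensors IRE1, ATF6 and PERK start the unfolded protein response: IRE1 splices the Xbp1 transcript, and XBP1 and ATF6 switch on chaperone genes through the ER stress response element (ERSE) in their promoters. Oligodendrocytes pass large amounts of myelin membrane protein through this compartment as they mature.

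At 31.5 °C 6 of the 10 folding genes were lower by the test (Sdf2l1, Hsp90b1, Pdia6, Xbp1, Calr and Hspa5), where 7.77% of the 11525 genes tested were called lower, and 0 were higher, where 7.64% were. At an unadjusted p under 0.05 limma gave 7 lower and 0 higher, where 1781 and 1803 of the 11525 genes were. These calls are from a fit on temperature alone, which leaves out the pairing of arrays by replicate number. With replicate number as a block 9 of the 10 were called lower and 0 higher, where 15.8% and 15.0% of all genes were. The largest change was that of Sdf2l1, to 51.5% of its level at 37 °C, while Hspa5 stood at 83.2%. All 10 genes had a value below 0 on the log2 scale, as did 50.3% of all genes tested. The median change of the 10 was -0.42, against 0.00 over all genes. The genes were named with earlier results of these data known, so these shares describe them and are no independent evidence.

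Promoter sequence is shown first, because the ERSE is a known element of chaperone gene promoters. The ERSE was searched as CCAAT, any 9 bases and CCACG, on both strands, in windows of 300 bases from RefSeq (build GRCm38.p6) that run from 250 bases before each gene's start to 50 after it. Of the 10 genes 9 had such a window. An exact match stood in 4 of the 9, those of Hspa5, Hsp90b1, Pdia6 and Calr, where 0.119% of 32851 windows of the same length hold one. As the element is already known from chaperone promoters, these matches describe the genes and are no independent evidence. The 250 bases before the start of these 4 follow, 5′ to 3′ on the strand of the gene, with the matches in capitals. A match on the opposite strand appears as its reverse complement.
Hspa5, chr2:34771840-34772089, plus strand: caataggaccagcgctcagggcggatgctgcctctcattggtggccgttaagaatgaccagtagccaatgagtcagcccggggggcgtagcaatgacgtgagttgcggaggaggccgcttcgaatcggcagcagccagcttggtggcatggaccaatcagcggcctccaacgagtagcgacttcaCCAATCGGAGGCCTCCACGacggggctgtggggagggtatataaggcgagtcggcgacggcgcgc
Hsp90b1, chr10:86705445-86705694, minus strand: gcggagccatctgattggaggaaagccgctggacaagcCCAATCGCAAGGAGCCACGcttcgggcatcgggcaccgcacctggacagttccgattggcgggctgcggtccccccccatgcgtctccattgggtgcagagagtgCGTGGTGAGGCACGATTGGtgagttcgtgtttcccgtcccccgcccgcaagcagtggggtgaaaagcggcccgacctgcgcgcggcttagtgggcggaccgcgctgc
Pdia6, chr12:17266339-17266588, plus strand: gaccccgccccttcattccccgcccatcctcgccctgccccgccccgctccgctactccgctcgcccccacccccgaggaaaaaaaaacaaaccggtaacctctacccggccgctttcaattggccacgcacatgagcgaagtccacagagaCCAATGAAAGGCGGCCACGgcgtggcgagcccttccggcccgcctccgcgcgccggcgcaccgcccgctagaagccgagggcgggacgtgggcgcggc
Calr, chr8:84846932-84847181, minus strand: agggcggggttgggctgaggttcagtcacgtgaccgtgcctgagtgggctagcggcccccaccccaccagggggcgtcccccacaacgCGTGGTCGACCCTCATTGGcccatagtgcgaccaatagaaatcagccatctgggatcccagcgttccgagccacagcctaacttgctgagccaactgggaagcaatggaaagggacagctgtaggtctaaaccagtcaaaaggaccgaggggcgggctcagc

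Distances were counted from 0 at the first transcribed base. The match of Hspa5 lay nearest the start, from -65 to -47. Hsp90b1 held 2, from -212 to -194 and, on the opposite strand, from -107 to -89. In Pdia6 the match ran from -98 to -80 and in Calr from -162 to -144, on the opposite strand.

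With 1 mismatch allowed in the 10 fixed bases, a setting added after the exact matches were seen, 6 of the 9 windows held a match, and 1.5% of all windows did. The added genes were Pdia3 (from -29 to -11) and Pdia4 (from -108 to -90, opposite strand). Their sites are shown to set beside the exact ones, read on the strand of the match.
Pdia3: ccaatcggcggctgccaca
Pdia4: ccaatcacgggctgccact

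ERSE-II (ATTGG, any 1 base, CCACG) was found in 1 member, Dnajb11, from 7 to 17, behind the start, and in 0.0365% of all windows. The XBP1-binding sequence called UPRE (TGACGTGG, which holds CCACG on its opposite strand) matched 0 of the 9 windows and 0.676% of all. Sdf2l1 and Xbp1 had no match to ERSE, also with 1 mismatch, to ERSE-II or to UPRE. The Sdf2l1 window held CCAAT 4 times and CCACG 3 times over both strands, but not in these arrangements. The Xbp1 window held neither. All 4 members with an exact ERSE were called lower, with a median change of -0.43. Of the 5 members with a window and without an exact ERSE, 2 were called (Sdf2l1 and Xbp1), with a median of -0.44. The difference between these groups was not tested.

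**Figure D1:**
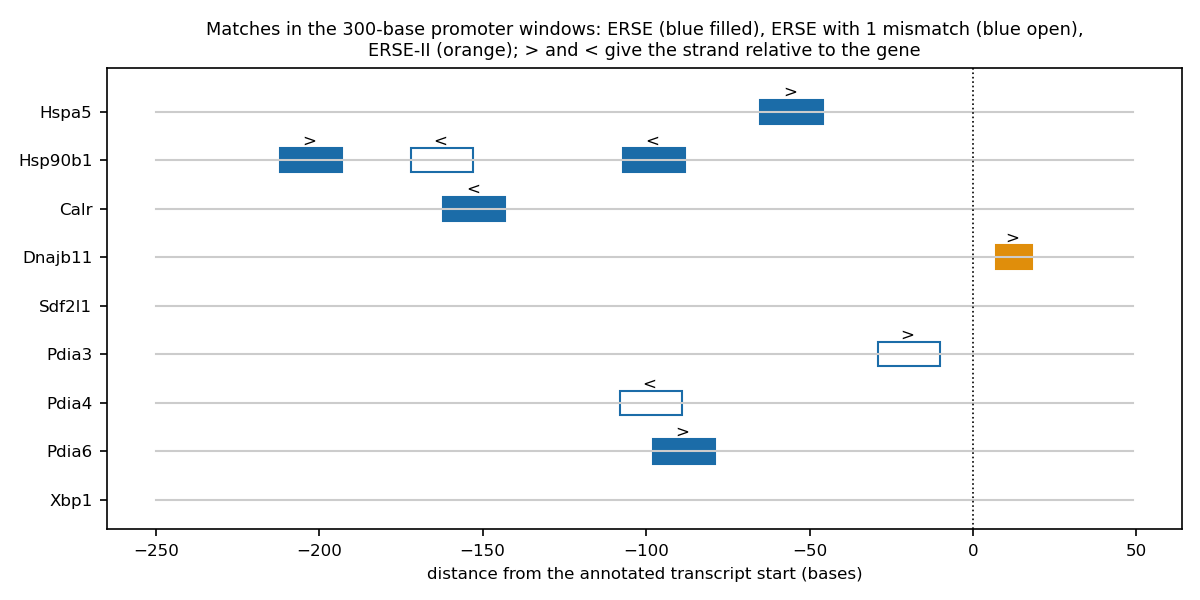
Position of each match in the promoter windows of 9 genes; the horizontal axis is the distance from the annotated transcript start in bases, filled blue bars are exact ERSE matches, open blue bars have 1 mismatch, the orange bar is ERSE-II, and the arrowheads give the strand. Hsp90b1 has 2 exact matches, and Sdf2l1 and Xbp1 have none.

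The same exact ERSE was present in 10 further genes that were tested. Of these 1 was called lower, Creld2, a secreted ER protein that is induced with the chaperones, and 8 had values below 0. Their median change was -0.20. That is 1 in 10, where 7.77% of all genes were called lower. The replicate block called 3 of these 10 lower (Creld2, Adcy3 and Zfp57, the last 2 named after their values were seen) and 0 higher, where it called 15.8% of all genes lower. Canx, the membrane-bound relative of calreticulin, had -0.18 ± 0.09 (SE, adjusted p = 0.201) (-0.02 when its probe sets were averaged) and Dnajc3, a J-domain inhibitor of PERK, -0.21 ± 0.15 (adjusted p = 0.371, and -0.07 averaged). Of 103 tested genes with UPRE, 5 were called lower and 13 higher, with a median of 0.06, and the block called 16 lower and 23 higher. Of the 8 tested genes with ERSE-II limma called 0. Their unadjusted p was under 0.05 for 2 higher and 0 lower, and the replicate block also gave 2 higher. With median scaling 0 of the 14 tested ERSE genes, members included, were called in limma, at a median of -0.19 beside 0.09 for all genes.

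Signals are MAS5 intensities after scaling of the arrays, on a linear scale. Changes are the 31.5 °C level minus the 37 °C level on the log2 scale, from limma, each gene by its brightest probe set, with p-values adjusted (Benjamini-Hochberg) across the 11525 genes. Signals of different probe sets were not set against each other. Arrays with the same replicate number varied together, so a second fit that blocks on replicate number is printed for each of the 10 genes whose call it changes, and as counts for the lists.

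BiP, the product of Hspa5, is the central chaperone of the ER and holds the stress sensors inactive when it is free. Its brightest probe set (1416064_a_at) read 4220, 4267, 4599 and 4182 in replicates 1 to 4 at 31.5 °C. The controls read 5012, 5045, 5568 and 5144. Every cool array was below every control array. The mean was 4317 ± 191 (SD, n = 4) against 5192 ± 257, a change of -0.27 ± 0.08 (SE, adjusted p = 0.0447). The 4 pairs lay close together, from -0.30 to -0.24. The call ended when any 1 of the 8 arrays was left out, with changes from -0.30 to -0.23, and when any 1 pair was left out of the blocked fit. Averaged over its probe sets it was -0.26 (adjusted p = 0.15), and over all alternatives the adjusted p ran from 0.015 to 0.467.

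BiP works with partners that load it and reset it. Sdf2l1, which joins J-domain partners of BiP in a complex, fell most. Probe set 1418206_at read 114, 154, 126 and 119 at 31.5 °C and 279, 258, 310 and 168 at 37 °C, with no overlap. The lowest control was replicate 4, the array with the lowest deposited signal of the 8. The mean was 128 ± 18.2 against 254 ± 60.9, a change of -0.96 ± 0.19 (adjusted p = 0.0134). Pairs 1 and 3 each changed by -1.29, pair 2 by -0.74 and pair 4 by -0.50. This call held under each of the 23 alternatives, with adjusted p from 0.00467 to 0.0441 and changes from -1.14 to -0.84.

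Dnajb11, the J-domain protein that hands clients to BiP and binds Sdf2l1, showed the smallest value of the 10. Its signals were 612, 600, 587 and 503 in the cool arrays and 651, 618, 587 and 557 in the controls, which overlap. The change was -0.07 ± 0.09 (adjusted p = 0.656), with a 95% interval from -0.28 to 0.14. That interval lies above the one of Sdf2l1 (-1.38 to -0.53), the partner protein of the same complex, though the difference between both genes was not tested. With arrays scaled to a common median the value of Dnajb11 was 0.02, above 0.

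Hyou1, the large chaperone that exchanges the nucleotide of BiP, read 348, 343, 378 and 517 at 31.5 °C. The controls read 450, 400, 623 and 571 (1423291_s_at). The groups overlapped, because replicate 4 at 31.5 °C was higher than 2 of the controls, yet each pair was lower in the cool array, by -0.14 to -0.72. The change was -0.36 ± 0.18 (adjusted p = 0.201), and the replicate block gave -0.36 ± 0.11 (adjusted p = 0.0447). That blocked call ended when any 1 pair was left out.

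Hsp90b1, the ER member of the Hsp90 family, folds receptors and integrins. Probe set 1415889_a_at gave 1783, 1562, 1729 and 1872 in the cool arrays. In the controls it gave 2258, 2515, 2684 and 2494, with no overlap. The mean fell from 2488 ± 175 to 1737 ± 131, a change of -0.52 ± 0.09 (adjusted p = 0.00821), or 30.2%. Calr encodes calreticulin, a chaperone that binds sugar chains and calcium. It read 3159, 2945, 3274 and 3594 at 31.5 °C and 4025, 3848, 4543 and 4619 at 37 °C (1417606_a_at), also apart. Its change was -0.39 ± 0.10 (adjusted p = 0.0293), and pairs ranged from -0.47 to -0.35. Calr lost its call without replicate 1, 2 or 3 at 31.5 °C or replicate 3 or 4 at 37 °C, with changes from -0.44 to -0.35 when 1 array was left out.

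**Figure D2:**
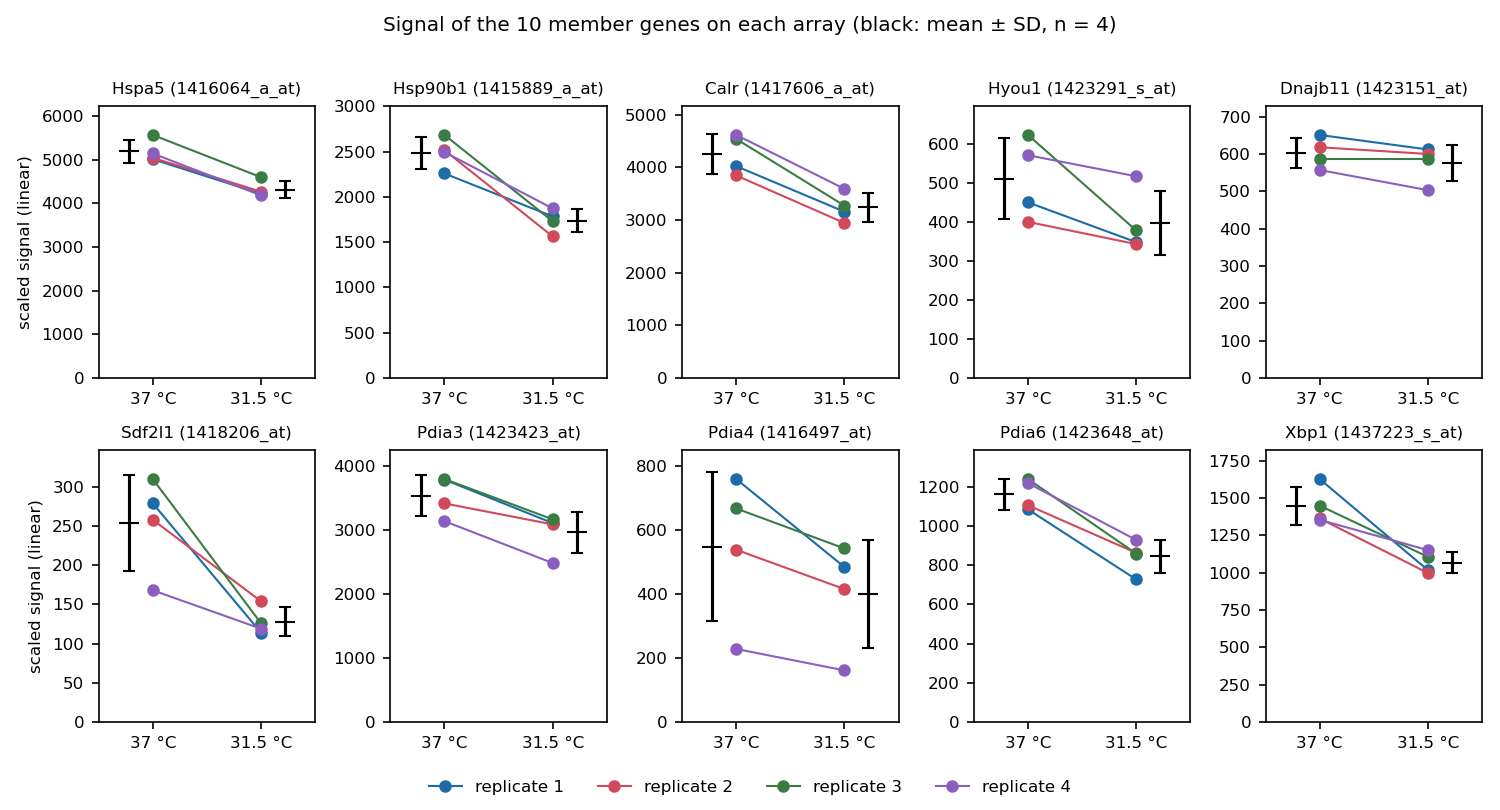
Scaled signal of the brightest probe set of each of the 10 genes on the 8 arrays; the vertical axes are linear and start at 0, lines join the arrays of 1 replicate number, and black marks are means with SD (n = 4). The 2 temperatures do not overlap for Hspa5, Hsp90b1, Calr, Sdf2l1, Pdia6 and Xbp1, and both replicate 4 arrays of Pdia4 lie below the other 6.

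The protein disulfide isomerases form and reshuffle the bonds between cysteines. Pdia6 read 728, 864, 860 and 930 at 31.5 °C and 1086, 1107, 1241 and 1220 at 37 °C (1423648_at). Every cool array lay below every control. The change was -0.46 ± 0.10 (adjusted p = 0.0165), and the level fell by 27.5%.

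Pdia3 is the isomerase that works on glycoproteins bound to calreticulin. It read 3113, 3093, 3172 and 2488 in the cool arrays and 3794, 3421, 3803 and 3143 in the controls (1423423_at). The groups overlapped only through the control replicate 4, at 3143, which is below 1 cool array. Pairs changed by -0.34 to -0.15. The test gave -0.26 ± 0.11 (adjusted p = 0.142), and the replicate block -0.26 ± 0.06 (adjusted p = 0.0292), a call that ended without pair 1, 3 or 4. Averaged over its probe sets Pdia3 had -0.63 (adjusted p = 0.0063), a mean that takes in the dim 1445330_at, whose cool arrays lie under the filter value.

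Pdia4, an isomerase found with BiP in chaperone complexes, read 484, 415, 542 and 161 at 31.5 °C. The controls read 759, 538, 667 and 228 (1416497_at). Both replicate 4 arrays were far below the rest, so the groups overlapped although each pair was lower in the cool array, by -0.30 to -0.65. The change was -0.46 ± 0.46 (adjusted p = 0.55). The blocked fit gave -0.46 ± 0.08 (adjusted p = 0.0096). With 1 array left out and no block the value ran from -0.83 (without replicate 4 at 37 °C) to -0.06 (without replicate 4 at 31.5 °C). Without both replicate 4 arrays the blocked fit gave -0.44 ± 0.10 (adjusted p = 0.0353). The mean of both probe sets, of which the second was near the floor, gave -0.15. The deposited signal of replicate 4 was the lowest within each temperature, with trimmed means of 189 and 132, and its part in this result was not tested.

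Xbp1 encodes the transcription factor of the IRE1 branch. Probe set 1437223_s_at read 1016, 997, 1105 and 1150 at 31.5 °C and 1626, 1362, 1448 and 1353 at 37 °C, with no overlap. The change was -0.44 ± 0.09 (adjusted p = 0.0162), from -0.68 in pair 1 to -0.23 in pair 4. The blocked fit lost the call without pair 2. These values do not separate the spliced from the unspliced transcript.

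Further probe sets of the same genes mostly moved the same way. They were tested among 22519 probe sets, of which 6.76% were called lower and 6.46% higher. Of the 20 member probe sets tested, 1 (Pdia3 1445330_at) passed the filter only through the controls, and counts are given with and without it. Of all 20, 12 were called lower in limma and 8 were not called. None had a value above 0, so 0 were higher at any threshold. With the replicate block 16 of 20 were called, all lower, where 26.3% of all probe sets were called in either direction and 13.9% lower. For 13 of the 20 every cool array lay below every control, against 10.2% of all probe sets, and the reverse, found in 10.8%, held for 0. All 4 pairs were lower for 18 of the 20, against 24.4% of all probe sets. Among the other 19 probe sets 11 were called lower, 15 with the block, 12 did not overlap and 17 were lower in each pair. Probe sets of 1 gene were read on the same arrays and are not replicates.

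The 3 probe sets of Calr changed by -0.39, -0.52 (1433806_x_at) and -0.43 (1456170_x_at), and all 3 were called. Both of Hsp90b1 were called, the second (1438040_a_at) at -0.42 ± 0.09, with pairs from -0.47 to -0.38. For Hspa5 the second probe set, 1427464_s_at, read 1684 ± 78.2 against 2180 ± 80.8 and was called (-0.37 ± 0.08, adjusted p = 0.0173). The brightest one missed the threshold in this larger set of tests (adjusted p = 0.059). The third, 1447824_x_at, which ran from 281 to 532 in the cool arrays, had -0.13 ± 0.24 (adjusted p = 0.772).

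Xbp1 had 4 probe sets. Next to the brightest one, 1420886_a_at and 1420011_s_at were called at -0.41 ± 0.11 (adjusted p = 0.0442) and -0.38 ± 0.10 (adjusted p = 0.0435). The dim 1420012_at had -0.61 ± 0.21 (adjusted p = 0.0945, and 0.00812 with the block). All 4 were lower in each of the 4 pairs.

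Pdia3 was the gene whose probe sets differed most in size of change. The dim 1445330_at read 31.9, 21.7, 28.5 and 33.8 at 31.5 °C and 50.4, 50.2, 51.9 and 82.0 at 37 °C. Its change was -1.0 ± 0.20 (adjusted p = 0.0132) against -0.26 for the bright one. Its cool arrays lie under the filter value of 36.3, so it entered the test through the controls. The second Hyou1 probe set (1423290_at) had -0.29 ± 0.41 (adjusted p = 0.692), with pair 4 at -0.88 and pair 3 at 0.17.

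The 3 probe sets that were not tested were dim. Hyou1 1451913_a_at stood at 35.9 ± 4.40 against 37.4 ± 8.63. Pdia6 1430983_at stood at 24.9 ± 4.40 against 33.7 ± 7.11, lower in 4 of 4 pairs. Pdia4 1450620_at was under the floor of 9.80 on 7 of the 8 arrays.

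**Figure D3:**
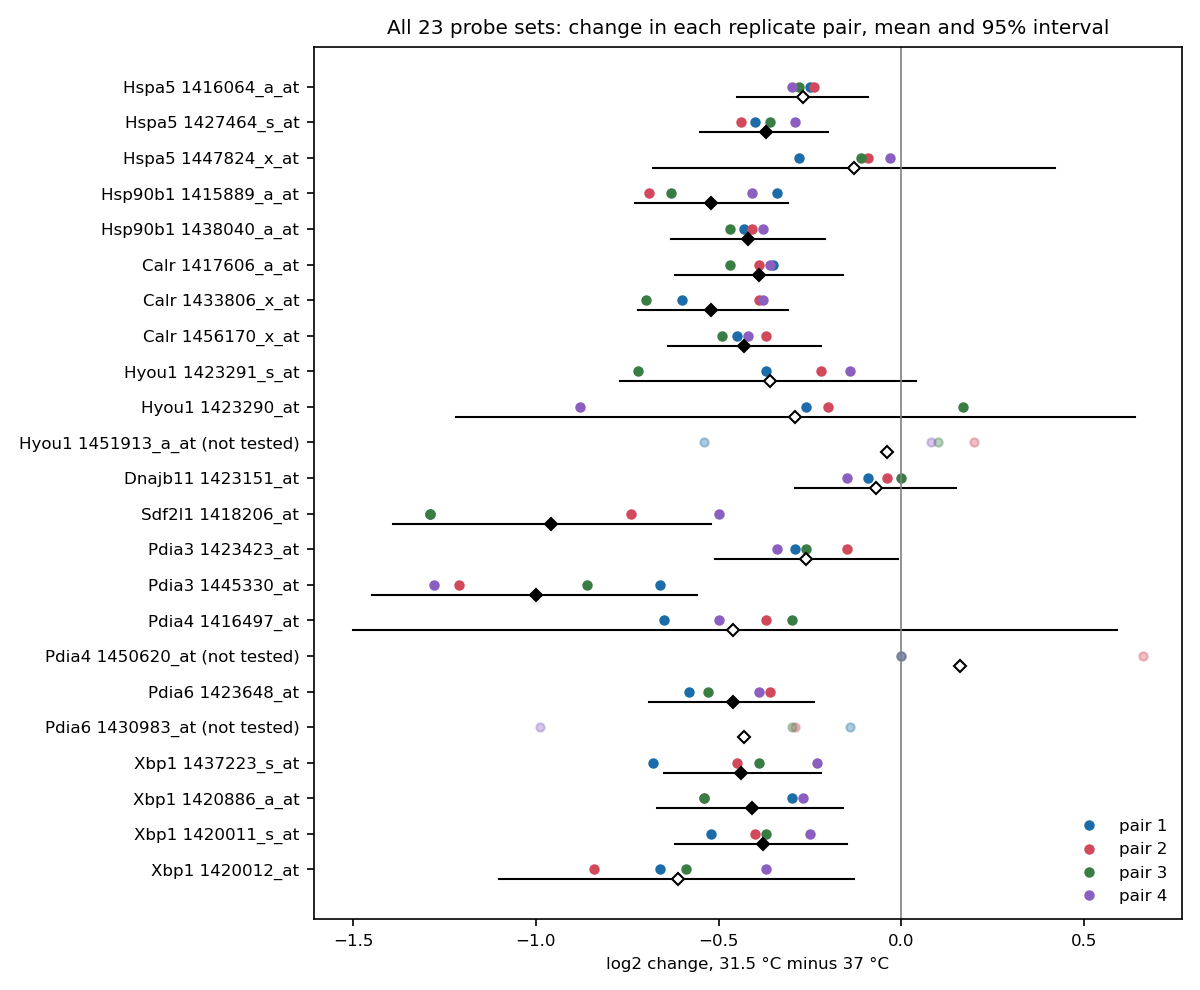
Log2 change (31.5 °C minus 37 °C) of all 23 probe sets; coloured points are the 4 replicate pairs, diamonds are means (filled where called lower among all probe sets), and black lines are 95% intervals of the fit without the block. Points of 18 of the 20 tested probe sets all lie below 0; the intervals of Pdia4 1416497_at and Hyou1 1423290_at are wide.

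As a group the 10 genes were lower in every pair, with medians of -0.36, -0.37, -0.43 and -0.35 in pairs 1 to 4. Over all genes the pair medians lay between -0.02 and 0.01. Of the 10 genes 9 were lower in each of the 4 pairs, against 25.1% of all genes, the exception being Dnajb11. For 6 of 10 the temperatures did not overlap, against 10.5% of all genes. With the replicate block 9 of 10 were called lower, where 15.8% of all genes were, Pdia3, Pdia4 and Hyou1 joining the 6.

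Scaling mattered for these calls. Median scaling shifted the middle of all genes to 0.09, the median of the 10 became -0.33, and 1 gene, Sdf2l1, was still called, while 2.35% of all genes were called lower. Both scalings multiply each array by 1 factor, which shifts genes above the floor alike. The distance of the 10 from the median of all genes (-0.41) was therefore bound to stay the same. With median scaling Hspa5 had an adjusted p of 0.467, Hsp90b1 of 0.0793, Pdia6 of 0.0849, Calr of 0.162 and Xbp1 of 0.175. Of the genes called in all, 62.6% were higher under that scaling, against 49.6% before.

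**Figure D4:**
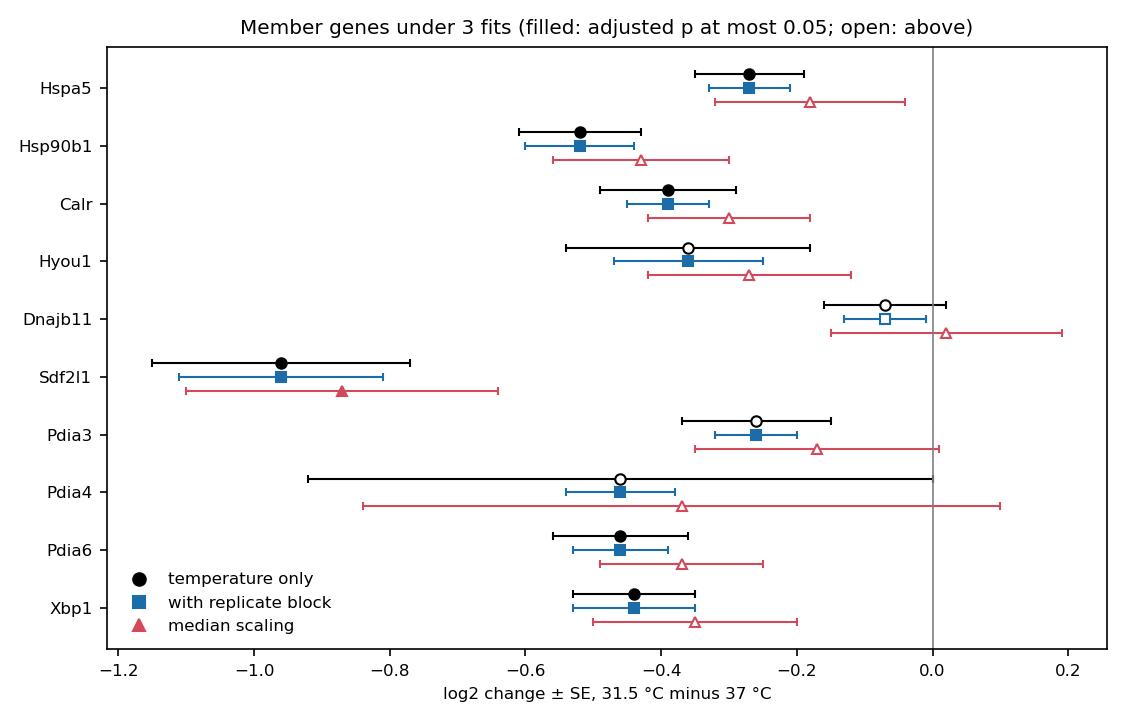
Log2 change ± SE of the 10 genes in 3 fits; circles are the fit on temperature alone, squares the fit with the replicate block and triangles the fit after median scaling, filled where the adjusted p was at most 0.05. The block leaves the values in place and narrows most of the errors, that of Pdia4 the most, while that of Xbp1 stays at 0.09. Median scaling moves each value upwards and leaves Sdf2l1 called.

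Other folding genes of the ER had calls in both directions. Of 43 tested chaperones, oxidoreductases and prolyl isomerases outside the 10, 7 were called lower, 5 higher and 31 not called. That is 16.3% lower and 11.6% higher, where 7.77% and 7.64% of all genes were called. The block gave 12 and 7, and median scaling 1 and 4. Of the 43, 27 had values below 0, and their median was -0.14. Lrpap1, the chaperone of lipoprotein receptors, fell from 2112 ± 115 to 1466 ± 66.1 (-0.53 ± 0.08, adjusted p = 0.00481). Erp44, which retrieves unfinished proteins from the Golgi, changed by -0.48 (adjusted p = 0.00673), and Manf, a secreted ER stress protein, by -0.37 (adjusted p = 0.026). Averaged over probe sets Lrpap1 had -0.26 and Erp44 -0.28. Under median scaling these 3 were not called (adjusted p of 0.0989, 0.112 and 0.308).

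The same list held rises. Fkbp7, a prolyl isomerase, rose from 87.7 ± 7.70 to 132 ± 10.6 (0.59 ± 0.10, adjusted p = 0.00708). The other 4, named after their values were seen, were Dnajc25 (0.77), the prolyl isomerase gene Ppic (0.59), Crtap of the collagen prolyl hydroxylase complex (0.51) and the peroxiredoxin gene Prdx4 (0.48). P4hb, the founding disulfide isomerase, did not pass, at 3435 against 3204 (0.10 ± 0.08, adjusted p = 0.403).

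Enzymes that fold collagen in the ER had the lowest median after the 10 genes among the pathway lists, -0.33. Of 12 tested 3 were called lower, 0 higher by limma. Before adjustment 6 lower and 1 higher had a p under 0.05, and the block called 5 lower and 0 higher. Serpinh1, the collagen chaperone, fell from 1843 ± 187 to 931 ± 192 (-1.0 ± 0.15, adjusted p = 0.0051). P3h2 changed by -1.34 ± 0.17 (adjusted p = 0.00276) and P4ha1 by -0.57 ± 0.10 (adjusted p = 0.00877, up to 0.0816 under median scaling); both add hydroxyl groups to prolines.

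The genes of the sensors IRE1, ATF6 and PERK did not pass. Ern1, the gene of IRE1, had -0.20 ± 0.18 (adjusted p = 0.498), Atf6 -0.19 ± 0.18 (adjusted p = 0.529, with a change of 0.12 when its probe sets were averaged) and Eif2ak3, the gene of PERK, 0.20 ± 0.09 (adjusted p = 0.169, with a change of 0.05 when averaged). Of the 15 sensors and partner factors tested 2 were lower, Atf6b (-0.41, adjusted p = 0.0164) and Creb3l2, a relative of ATF6 (-0.60, adjusted p = 0.0186). The block called 3 lower and 1 higher, and the median of that list was 0.01. Atf6b was not called with median scaling (adjusted p = 0.204), nor Creb3l2 without replicate 3 at 31.5 °C (adjusted p = 0.0559).

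Genes that remove misfolded proteins from the ER were not lower in limma. Of 29 tested, 0 were lower and 2 higher. Before adjustment 4 lower and 5 higher had a p under 0.05, and the block called 3 lower and 4 higher. The median was 0.07. Herpud1, which assembles the degradation complex, had -0.13 ± 0.09 (adjusted p = 0.377). Nploc4, a partner of the extracting ATPase, rose by 0.52 (adjusted p = 0.0197), and the lectin gene Erlec1 by 0.62 (adjusted p = 0.0264), though with the mean of its probe sets Erlec1 had -0.03. Nploc4 missed the threshold under median scaling (adjusted p = 0.0599).

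Genes of entry and exit moved both ways. In the translocon, signal peptidase and glycosylation list, 2 of 36 were lower and 4 higher (median -0.01), or 4 and 5 with the block. Alg5, an enzyme of the sugar chain's lipid carrier, rose by 0.73 (adjusted p = 0.00391, and by 0.37 averaged over probe sets), Spcs3 of the signal peptidase by 0.36 and Srp9 by 0.32. Srp9 had 0.01 with the mean of its probe sets. In the list of ER exit and retrieval 1 of 38 was lower, the cargo receptor gene Lman2 (-0.50, adjusted p = 0.0118, and -0.29 averaged), and 1 higher, the coat gene Copb2 (0.29, adjusted p = 0.0413), with a median of 0.07. The block called 1 lower and 6 higher there. Of 17 calcium handling genes 1 was lower, Rcn3 (-0.51, adjusted p = 0.0478), at a median of 0.04, and the block called 1 lower and 2 higher. Median scaling ended the calls of Spcs3, Lman2, Copb2 and Rcn3 (adjusted p of 0.0804, 0.168, 0.135 and 0.0691) and of Srp9 (0.129).

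**Figure D5:**
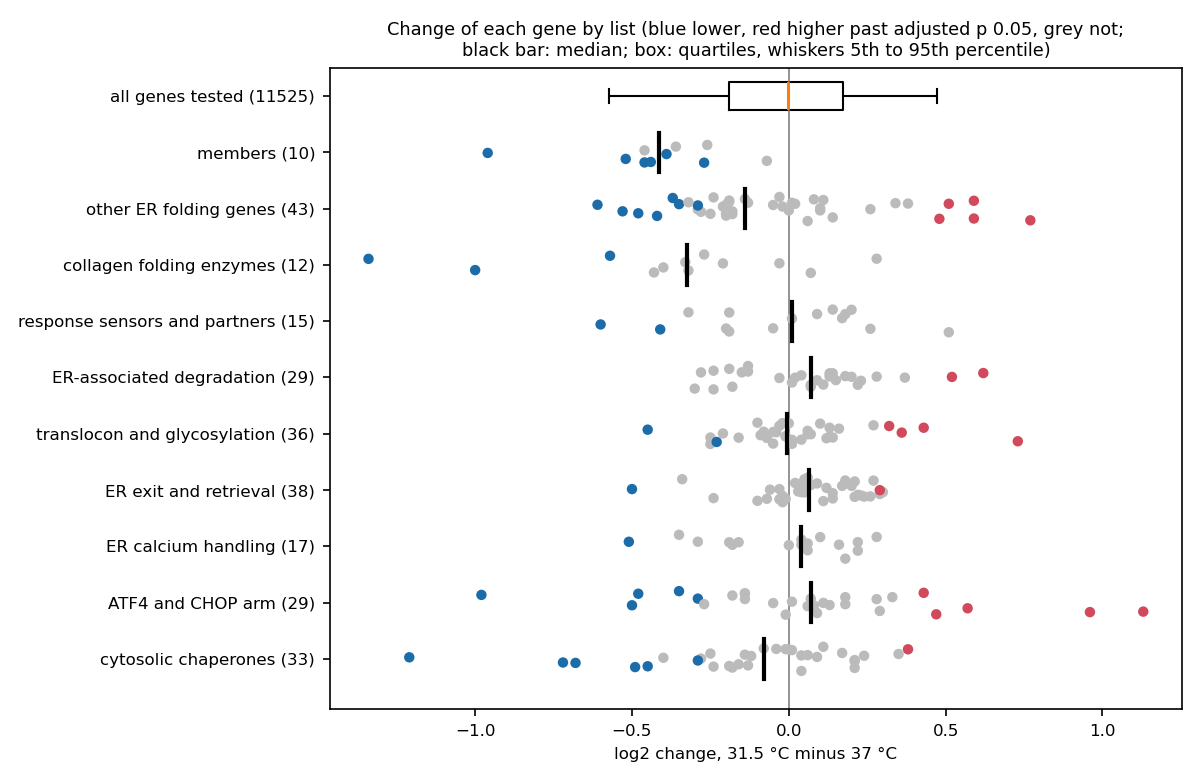
Log2 change of each tested gene by list, with the number tested in brackets; blue points were called lower, red higher and grey neither, black bars are list medians, and the box spans the quartiles of all genes with whiskers from the 5th to the 95th percentile. The 10 genes all lie below 0 at a median of -0.42, while the degradation list lies around 0.07.

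The ATF4 and CHOP arm, which PERK starts, moved both ways, with 5 of 29 lower, 5 higher and a median of 0.07. The block gave 5 and 8, and median scaling 1 and 2. Slc7a11 and Slc7a5, amino acid transporters, rose by 1.13 and 0.96, and Cth, an enzyme of cysteine synthesis, changed by -0.98 (adjusted p = 0.00524). Ddit3, the gene of CHOP, stood at 323 against 335 (-0.05 ± 0.08, adjusted p = 0.698), with -0.27 averaged over probe sets, and Atf4 had -0.18 ± 0.08 (adjusted p = 0.174). Cytosolic chaperones had 6 of 33 lower (18.2%, where 7.77% of all genes were) and 1 higher, with a median of -0.08. The block gave 10 and 3, and median scaling 2 and 0. Hsph1, the cytosolic counterpart of Hyou1, changed by -1.21 ± 0.07 (adjusted p = 0.000133).

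Cell type markers were read beside these results. Markers of myelinating oligodendrocytes fell in 14 of 20 tested, among them Cldn11 and Mag, where 7.77% of all genes were called lower. The block called 15 lower and 1 higher, Qdpr (0.23), where 15.8% and 15.0% of all genes were. The summed signal of these markers was 20792 to 28069 at 31.5 °C against 35527 to 42569 at 37 °C. Median scaling left 7 of the 20 called, Mobp among them. Mbp fell from 9500 ± 1054 to 5474 ± 895. Mobp was near the floor in the cool arrays, at 10.0 ± 7.19, so it passed the filter only through the controls, as did Mal. Without both, 13 of 18 fell, or 14 with the block. No marker of the list was at 0 on all arrays. This list thus moved with the folding genes, and its part in their change was not tested.

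Precursor markers were present at both temperatures. Of 18 tested 5 were lower (27.8%, where 7.77% of all genes were) and 2 higher (11.1%, where 7.64% were), and 13 had values below 0. The block called 6 lower and 3 higher. Gpr17 (-0.84), Matn4 (-0.87) and Tnr (-0.73) were called lower. Pdgfra, at 2469 ± 365 in the cool arrays and 1798 ± 168 in the controls, was called higher. The summed precursor signal overlapped, at 23260 to 25798 and 24200 to 28264. Markers of astrocytes (summed signal 40879 to 53858 and 45340 to 58744) and of microglia (15562 to 26268 and 19177 to 35548) were present too, with 1 of 20 lower in each list, S100b and Fcrls. The block called 7 astrocyte markers lower and 4 higher, and 8 microglial markers lower. Neuron markers had 2 of 24 lower and 3 higher (sums of 19260 to 23826 and 18793 to 26335), and fibroblast markers 1 of 17 lower, Thy1 (sums of 9969 to 17848 and 10367 to 14814). The block called 9 neuron markers lower and 3 higher, and 4 fibroblast markers lower. Of these fibroblast markers Lum passed the filter only through the controls, and 3 were called without it. Of 4 endothelial markers tested limma called 0, with 0 at an unadjusted p under 0.05 and, in the blocked fit, 1 lower and 1 higher. Their sums were 388 to 1321 and 343 to 1116. No marker of these lists was at 0 on all 8 arrays.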

How the data were processed

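Gene expression was measured on 8 arrays. The deposited table holds linear probe set intensities, and the submitters' processing notes name MAS5 as the authors' tool. Its version, scaling target and detection calls are not given in the sources used here. Gene names came from the platform annotation, updated through gene identifiers: of 45037 probe sets without the 64 controls, 34945 carried 1 symbol, 932 several and 9160 none. All 23 probe sets of the members carried 1 symbol.

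Each array was scaled to a common 2% trimmed mean (deposited values 132 to 248, factors 0.848 to 1.60), values under the 25th percentile (9.80) were raised to it, and log2 was taken. Probe sets at or above the 50th percentile of the mean (36.3) were tested, singly (22519) and with each gene by its brightest one (11525 genes). The comparison was fitted with limma 3.58.1 in R 4.3.3 (two-sided, threshold 0.05, Benjamini-Hochberg), on temperature alone. The number of arrays limits the precision. No array was a copy of another (identical values: 0.708% or fewer). Arrays of 1 replicate number deviated together (correlations of 0.422 to 0.614 across genes, at most 0.0566 for different numbers), so the numbers pair the arrays. The fit on temperature alone leaves this pairing out, so differences between the replicate pairs enter its errors.

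The members and the lists were chosen with earlier results of these data known. Named genes were all members, up to 3 of smallest p in each list, 14 fixed genes, and the 5 genes nearest to the members' mean profile. The fit was tested on simulated data. The alternatives changed the scaling (quantile, median), the floor (50th percentile, or none and a pseudocount of 1), the filter (70th percentile, or none), the probe sets (their mean per gene, or without _x_at and _s_at) and the model (intensity trend, weights for arrays, replicate number as a block), or left out an array or a pair. Promoter windows came from RefSeq (GRCm38.p6). A planned list of proteins with an ER retrieval signal was not analysed here. Python 3.11.15 and matplotlib 3.10.9 made the figures.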

Additional observations from a re-analysis of the deposited data

Results flagged for a closer look

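Each group of 4 arrays was examined for a value far from the others in each of the 23 probe sets (46 groups), by the gap to the nearest value divided by the group's range (Dixon's 95% critical value for 4 values). Chance alone marks about 5% of groups, and 4 of the 46 were marked. Replicate 4 at 31.5 °C stood low for the bright Pdia3 probe set 1423423_at, at a signal of 2488 (ratio 0.895). Replicate 4 at 37 °C stood high for the dim Pdia3 probe set 1445330_at, at 82.0 (ratio 0.929). The other 2 were among the probe sets too dim to be tested: Hyou1 1451913_a_at at 42.5 in replicate 3 at 31.5 °C (ratio 0.948), and Pdia4 1450620_at at 15.5 in replicate 2 at 31.5 °C (ratio 1.0).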

How the results depend on the processing

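Over the 23 alternatives 196 of 230 values of the 10 genes kept their direction and their side of the threshold, 24 lost the call, 9 gained it and 1 changed sign: Dnajb11, to 0.02 with median scaling. Median scaling left 725 of all genes called, 1 member gene and 2 member probe sets, with a member median of -0.33. Of these 2 probe sets 1 was Pdia3 1445330_at, which passed the filter only through the controls. It kept its call in the 21 alternatives that tested it, so each count of called member probe sets that follows includes it. With the replicate block 3548 genes were called, 9 member genes and 16 member probe sets, all lower. Leaving out 1 array gave 872 to 1591 genes, 4 or 5 member genes, 5 to 13 member probe sets and a member median of -0.46 to -0.34. Member probe sets fell to 5 without replicate 2 and 6 without replicate 3 at 31.5 °C. Leaving out a pair, with the block, gave 2047 to 2422 genes, 6 member genes, 11 to 14 probe sets and medians of -0.44 to -0.38. Without _x_at and _s_at probe sets 7 member probe sets were called, since fewer were tested. Signs changed for 2 further probe sets when 1 array was left out. Hspa5 1447824_x_at ranged from -0.30 to 0.01 (0.00 without the first cool array, 0.01 without the fourth control) and Hyou1 1423290_at from -0.52 to 0.14 (without the fourth cool array). Allowing 1 mismatch raised the members with ERSE from 4 to 6. Where no reason is given, the cause was not tested. Dim probe sets near the floor of 9.80 limit what can be read.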

Other observations

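The 5 tested genes outside the group whose log2 values, centred over the 8 arrays, lay nearest to the mean centred profile of the 10 members were Afg1l, Eef1akmt1, Cd99l2, Tubd1 and Taf12. Their root mean square differences from that profile were 0.0386, 0.0499, 0.0633, 0.0655 and 0.0668 on the log2 scale. Their changes were -0.48, -0.35, -0.41, -0.41 and -0.44. The members' own differences from the same profile ranged from 0.106 for Hspa5, 0.108 for Pdia3 and 0.109 for Xbp1 to 0.334 for Sdf2l1 and 0.607 for Pdia4. The mean profile itself was lowest in replicate 4 at 31.5 °C (-0.29) and highest in replicate 3 at 37 °C (0.36). In that lowest array Pdia4 stood far below the rest, at -1.4. Sdf2l1 was at -0.58 there, and the other members ran from -0.38 (Pdia3) to 0.22 (Hyou1).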
